A study of Mus musculus with 4 samples.

Results

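The genes described here encode the proteins of the cytosolic ribosome, measured by RNA sequencing in mouse early blastocysts that were obtained either through in vitro fertilization (IVF) or through nuclear transfer from somatic cells (SCNT). They were chosen by name alone. The members are the symbols that begin with Rpl or Rps, go on with a number and end there or with a single a, l or x, together with Rplp0, Rplp1, Rplp2 and Rpsa. Of the 23235 gene symbols in each library, 81 fit, 49 of the large subunit and 32 of the small subunit. The question put to them was whether their RNA differed between IVF and SCNT embryos, and how far the libraries of one group differed among themselves.

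Each group had 2 libraries, and each library was made from 6 pooled early blastocysts lysed 96 hours after fertilization or activation. For IVF, Xist knockout oocytes of 129S1/Svj background were fertilized with wild-type CAST/EiJ sperm. SCNT embryos carried nuclei of embryonic fibroblasts from a cross between an Xist heterozygous knockout 129S1/SvImJ mother and a CAST/EiJ father, placed in B6D2F1/J oocytes, so an Xist knockout allele enters the design of both groups. In the SCNT libraries the column headers also include Kdm4d, the name of a gene for a histone demethylase, and the sources used here do not say whether it was given to the embryos. Separate parents, matings or days are not stated for libraries of one group, so the p-values below measure only how far these libraries differed, and that spread may be technical.

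A ribosome is built from a large and a small subunit, each a ribosomal RNA scaffold covered by proteins that are mostly present in a single copy, so a growing cell makes most of these proteins in similar numbers. Their mRNAs are short and abundant, and in mammals they begin with a C followed by a run of pyrimidines, the terminal oligopyrimidine (TOP) tract, through which mTOR signalling controls how strongly they are translated. The preimplantation embryo starts with ribosomes stored in the oocyte and makes its own after its genome is activated, so that blastocyst cells hold much ribosomal protein mRNA.

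Values are FPKM, fragment numbers scaled by transcript length and by the mapped total of the library, a unit inferred from the tools used. They summed to between 933167 and 985197 per library, and between 5212 and 6527 symbols per library were listed at 0. The absolute depth is unknown. Libraries of one group had a log2-scale Pearson correlation of 0.946 (IVF) and 0.954 (SCNT) across genes. Small nucleolar RNA and microRNA genes held 12.4% and 12.2% of the summed FPKM in IVF libraries 1 and 2 and 9.50% and 9.73% in SCNT libraries 1 and 2. Xist was listed at 1.09, 13.9, 4.13 and 3.33 FPKM in IVF 1, IVF 2, SCNT 1 and SCNT 2, and since the deleted stretch is not given, these values do not check the genotype. Markers of blastocyst lineages were present: all 9 trophectoderm, all 8 inner cell mass and 4 of 5 primitive endoderm markers passed the expression filter. Passing it does not by itself show the labelled stage. The cumulus and granulosa cell markers were under 1 FPKM everywhere, 8 of 8, and 7 of the 10 fibroblast markers were too. The trophectoderm markers summed to 4440 and 3634 FPKM in IVF and 6045 and 3969 FPKM in SCNT, and the fibroblast markers to 8.46 and 5.99 against 12.4 and 6.18 FPKM.

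Ribosomal protein genes were among the most abundant transcripts of these embryos. Of the 100 genes with the highest mean FPKM, 50 were members, and of the highest 250, 71 were. In every library 63 of the 81 members exceeded 1000 FPKM, and 80 were above 0 in all 4 libraries. The exception was Rpl3l, the copy of Rpl3 known from heart and skeletal muscle, at 0.484, 0, 0.116 and 0.332 FPKM in IVF 1, IVF 2, SCNT 1 and SCNT 2. It was the only member to miss the filter (mean FPKM of 1 or more), so 48 large and 32 small subunit genes were tested. Every other member passed by a wide margin, the lowest mean among them being 35.3 FPKM.

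Although the proteins are needed in similar numbers, FPKM ranged widely between members. Large subunit genes had a median mean level of 1799 FPKM, from 92.4 to 16261 FPKM, and small subunit genes one of 2619 FPKM, from 35.3 to 8616 FPKM. Rpl41, whose product of 25 residues is the shortest of the ribosomal proteins here, was highest at 18976, 13556, 19685 and 12828 FPKM in IVF 1, IVF 2, SCNT 1 and SCNT 2. It alone made up between 7.00% and 9.36% of the members' sum. Next in the large subunit came Rpl38, Rpl36 and Rpl13. Rps29, Rps28, Rps18 and Rps20 led the small subunit, and the 2 highest of these encode proteins of 56 and 69 residues. Across the 80 tested members, the mean log2 level and protein length had a Pearson r of -0.150 and a Spearman rho of -0.318, given as a description of genes measured in the same libraries.

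The lowest tested members were Rps15a, Rpl30, Rpl39l and Rpl10l. Rps15a, of the small subunit body, was at 32.7 and 32.6 FPKM in IVF and 37.3 and 38.4 FPKM in SCNT, 2672nd by mean FPKM among all genes. Rpl30 was at 109, 55.6, 142 and 64.0 FPKM. The mouse annotation (GENCODE M21) holds 8 named pseudogenes of Rps15a and 9 of Rpl30, and of the 81 members 59 have at least 1, with a maximum of 24 for Rpl31. FPKM of such genes depends on how reads shared with near-identical copies were divided, which the sources used here do not state, so the order of levels between members is uncertain, and the part of these copies in it was not tested.

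**Figure D1:**
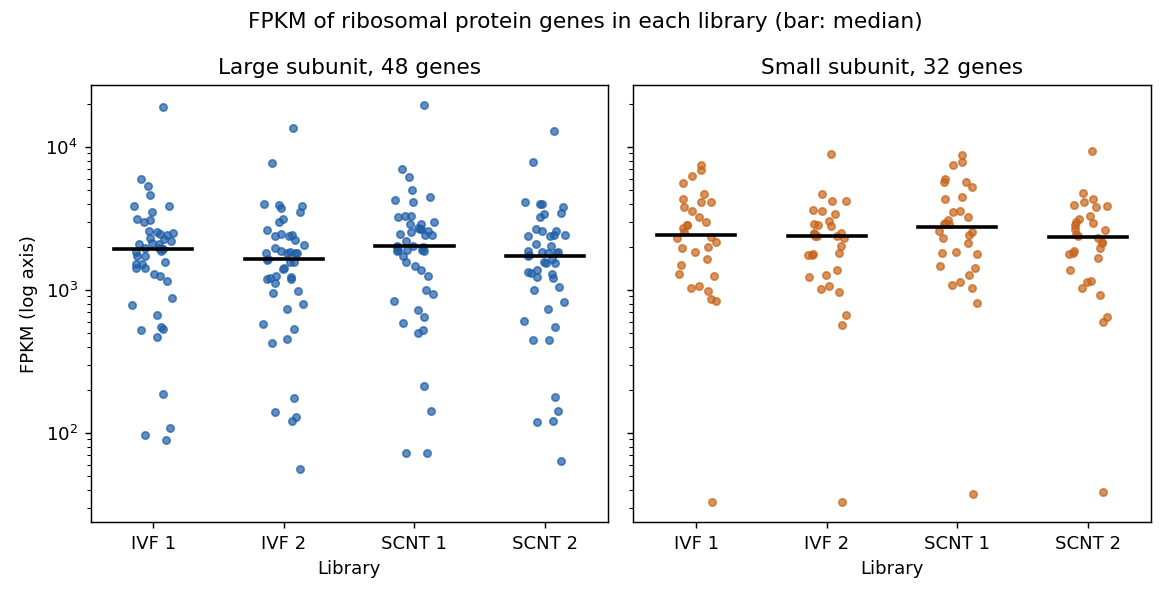
FPKM of the 80 tested ribosomal protein genes in each of the 4 libraries on a log axis, with large and small subunit genes in separate panels, 1 point per gene (spread sideways for legibility) and a bar at the median. Rpl41 lies highest, at 19685 FPKM in SCNT 1, Rps15a lies alone at the bottom of the small subunit, and the medians of the libraries differ far less than the genes of one library do.

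The TOP tract can be read where the annotated start is precise. RefSeq promoter windows on GRCm38.p6 were found for 61 of the 81 members, in 73 windows since some genes have several starts. A start base C followed by at least 4 pyrimidines (C or T) stood in 13 of these 73 windows, or 17.8%, against 823 of all 32851 windows, or 2.51%. The 13 windows belong to 13 members, 7 of the large and 6 of the small subunit. The ETS factor core CCGGAAG, on either strand, was present in 27 of the 73 windows, 37.0%, against 8.86% of all windows. A match is a description of letters, and an annotated start may lie a few bases from the one used in these embryos.

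The 6 stretches below are examples of this feature, and other members that carry it are not shown. Both SCNT values lay above both IVF values for Rpl15, Rpl35, Rps6 and Rps15a, as for 18.3% of all genes tested. The groups overlapped for Rps10, Rps18 and every member with this feature that is not shown. A link between the feature and the groups was not tested. Rps18 differed strongly between libraries of one group, and Rps10 is a gene of the small subunit head. Each stretch gives 15 bases before and 15 bases from the annotated start on the minus strand, with the start C and its pyrimidine run in capitals.
Rpl15, chr14:18270972-18271001: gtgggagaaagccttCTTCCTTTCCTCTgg
Rpl35, chr2:39005117-39005146: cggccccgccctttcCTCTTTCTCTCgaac
Rps10, chr17:27635230-27635259: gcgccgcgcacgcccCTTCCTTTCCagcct
Rps18, chr17:33955651-33955680: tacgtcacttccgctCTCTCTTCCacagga
Rps6, chr4:86857353-86857382: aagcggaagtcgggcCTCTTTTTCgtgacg
Rps15a, chr7:118116133-118116162: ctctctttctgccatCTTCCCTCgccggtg
The capital runs of these examples are between 8 and 13 bases long and differ in their mix of C and T. Shorter runs are not shown, such as those of 5 bases at Rplp2 and Rps21.

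Summed over the members, SCNT libraries were not separated from IVF libraries. The sum was 202719 and 176536 FPKM in IVF 1 and 2 and 226108 and 183205 FPKM in SCNT 1 and 2. As a share of all FPKM this was 21.7% and 17.9% in IVF (19.8% ± 2.69, SD, n = 2) and 23.6% and 18.8% in SCNT (21.2% ± 3.45, SD, n = 2). The difference between the group means, 1.37 percentage points, was smaller than the gap between the libraries of either group. With 2 libraries against 2, the smallest two-sided p of an exact permutation test is 0.333, so no test of the share could pass 0.05. The small RNA share given above moves with the groups, and with those genes left out of the sum the shares were 24.8% and 20.4% against 26.1% and 20.8%, a difference of 0.841 percentage points. The summed large subunit FPKM was 1.23, 1.26, 1.19 and 1.23 times the summed small subunit FPKM in IVF 1, IVF 2, SCNT 1 and SCNT 2. In whole embryos, fewer cells of a type and less RNA per cell cannot be told apart.

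No ribosomal protein gene passed the test between IVF and SCNT. The test was limma on log2(FPKM + 1), fitted on the 11039 genes whose mean FPKM was 1 or more and adjusted over all of them by the Benjamini-Hochberg method, with a threshold of 0.05. Over all genes 14 passed, 0.127%, and among members 0 of 48 large and 0 of 32 small subunit genes did. At an unadjusted p under 0.05, 783 of all genes were found, 7.09%, and again 0 members in either subunit. The smallest adjusted p among members was 0.963, by limma, at Rps23 and Rps15a. The median standard error of a member's difference was 0.264, against a median size of the difference of 0.118, both on the log2(FPKM + 1) scale.

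The estimates nonetheless lay mostly on one side. In the large subunit 41 of 48 genes had a higher mean log2 level in SCNT and 7 a lower one, with a median difference of 0.11 and a range from -0.32 to 0.29. In the small subunit 28 of 32 were higher and 4 lower, with a median of 0.13 and a range from -0.19 to 0.33. Over all genes tested 52.2% of estimates were above 0, with a median of 0.01. Members share the same 4 libraries, so their signs are not independent of each other. Of the 9 trophectoderm markers, 7 had a higher estimate in SCNT and 2 a lower one, with a median of 0.17. Among them 0 passed the limma test and 3 had an unadjusted p under 0.05. These 3 were Elf5 (1.63 ± 0.32, SE), Eomes (0.95 ± 0.32) and Cdx2 (0.63 ± 0.19), all on the log2(FPKM + 1) scale. The 2 lower ones were Tfap2c (-0.21 ± 0.21) and Tead4 (-0.08 ± 0.22). Between SCNT 1 and IVF 1 the marker median was 0.20, and between SCNT 2 and IVF 2 it was 0.21. Over all members these medians were 0.15 and 0.07. Inner cell mass markers had 4 higher and 4 lower estimates, with a median of -0.01. The 4 tested primitive endoderm markers had 2 higher and 2 lower, with a median of 0.13. The part of cell type proportions in the lean was not tested. With small RNA genes left out and each library rescaled, 34 large subunit estimates were higher and 14 lower, with a median of 0.05. In the small subunit 26 were higher and 6 lower, with a median of 0.07. The median over all genes tested fell as well under this rescaling, from 0.01 to -0.03.

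The size of this lean changed with the library left out, which also leaves the library numbers unbalanced between the groups. Without SCNT library 1 the medians were -0.02 in the large and 0.00 in the small subunit, and without IVF library 2 they were 0.00 and 0.09. Without IVF library 1 they were 0.21 and 0.20, and without SCNT library 2 they were 0.27 and 0.26. Comparing libraries of the same number, the large subunit median was 0.14 between SCNT 1 and IVF 1 and 0.05 between SCNT 2 and IVF 2, and the small subunit medians were 0.18 and 0.07. SCNT was above IVF at both numbers for 31 large subunit genes, 64.6%, and 25 small subunit genes, 78.1%, against 33.8% of all genes tested. The lean was thus present at both numbers and smaller at number 2.

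Both SCNT values lay above both IVF values for 7 large subunit genes, 14.6%, and 9 small subunit genes, 28.1%, and no member had both SCNT values below both IVF values. Over all genes tested, 18.3% had both SCNT values above and 15.1% both below. Over all 80 tested members, 16 had both SCNT values above both IVF values, 20.0%, which is close to the share of all genes. By subunit, the large subunit share is below that of all genes and the small subunit share above it. The difference between the subunits was not tested. In the lower direction both subunit shares are below that of all genes. Large subunit genes with both SCNT values above both IVF values included Rpl10, Rpl15, Rpl17, Rpl27, Rpl35 and Rpl37. Those of the small subunit included Rps6, Rps7, Rps13, Rps15, Rps15a, Rps23 and Rps24. Rps6, the substrate of S6 kinase in the mTOR pathway, shows how small such a separation can be, at 1029 and 1015 FPKM in IVF and 1087 and 1030.1 FPKM in SCNT.

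**Figure D2:**
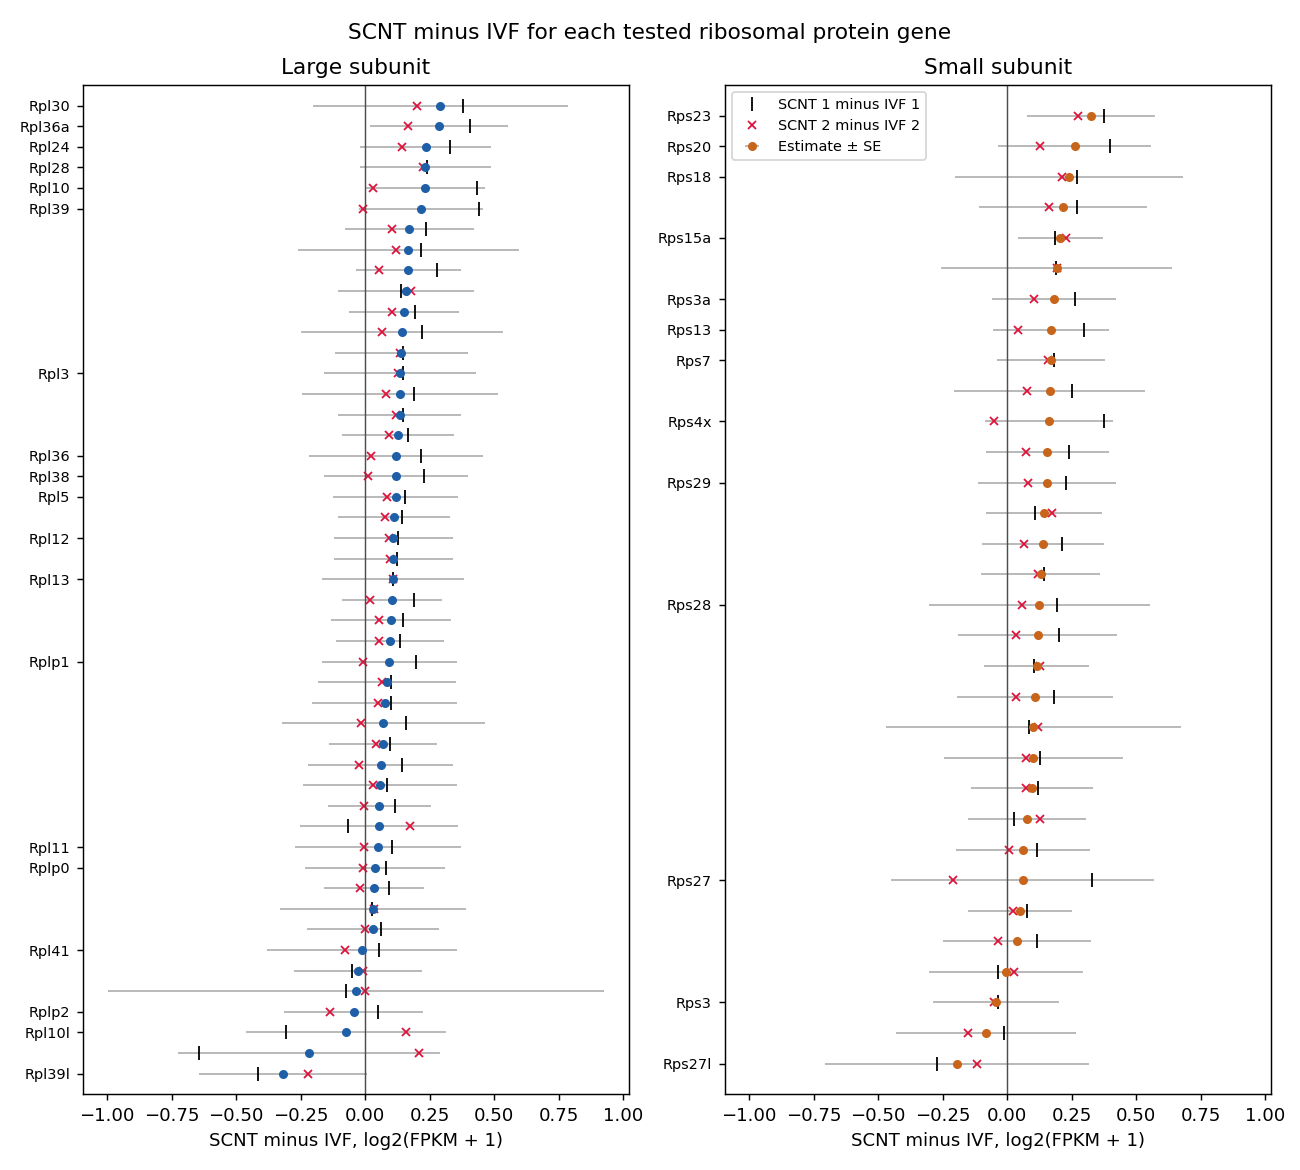
SCNT minus IVF difference of each of the 80 tested members on the log2(FPKM + 1) scale, ordered within each subunit and labelled for members singled out by the naming rule, with the estimate and its standard error and with the differences of the libraries numbered 1 (ticks) and 2 (crosses). Estimates lie above 0 for 69 of the 80 genes, and the libraries numbered 1 mostly lie further right than those numbered 2.

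The small subunit body and platform hold the decoding and mRNA channel proteins, and 16 of their 17 genes had a higher estimate in SCNT, with a median of 0.14 and 0 passing. Rps23, a protein beside the decoding centre, had the largest difference of any member. It was at 1634 and 1377 FPKM in IVF and 2119.8 and 1667 FPKM in SCNT, a difference of 0.33 ± 0.25 (SE, log2(FPKM + 1) scale) with an interval from -0.31 to 0.96. The lowest SCNT value exceeded the highest IVF value by less than the IVF libraries differed from each other. Rps15a, with the values given above, differed by 0.21 ± 0.16. Rps7 was at 1290.1 and 1238 FPKM in IVF and 1464 and 1379.8 FPKM in SCNT. Rps13 was at 1480.1 and 1759 FPKM in IVF and 1819.6 and 1811 FPKM in SCNT. Both genes differed by 0.17 on the log2(FPKM + 1) scale, with standard errors of 0.21 and 0.23. Rps3a, at 2008 and 1812 against 2409.9 and 1946 FPKM, overlapped between the groups.

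The small subunit head contacts the tRNAs and frames the mRNA channel. Of its 14 genes 12 had a higher estimate in SCNT and 2 a lower one, with a median of 0.12 and 0 passing. Rps20 was at 4304 and 3607 FPKM in IVF and 5669.8 and 3937 FPKM in SCNT, a difference of 0.26 ± 0.30 (SE), and its groups overlapped. Rps18 was at 6240.0 and 3559 FPKM in IVF and 7519 and 4122 FPKM in SCNT, and Rps28 at 6872 and 4153 against 7862 and 4318 FPKM. For both genes the libraries numbered 1 were high and those numbered 2 low in each group, so the groups overlapped widely. Rps3, an RNA-binding protein at the mRNA entry, was at 830.5 and 666 FPKM in IVF and 811 and 642 FPKM in SCNT, with a difference of -0.04 ± 0.24 (SE).

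In the large subunit the P stalk, which recruits the GTPases of translation, is made of Rplp0, Rplp1, Rplp2 and the Rpl12 protein at its base. Rplp0 was at 2278 and 1812 FPKM in IVF and 2411 and 1803 FPKM in SCNT. Rplp1 was at 3881 and 3490.0 FPKM in IVF and 4447 and 3467 FPKM in SCNT, and Rplp2 at 3110.4 and 2638 against 3218 and 2397 FPKM. For all 3 of these genes the SCNT values enclosed the IVF values. Rpl12 was at 1832 and 1617 FPKM in IVF and 2002 and 1723 FPKM in SCNT. The stalk's median difference was 0.07, with 3 estimates higher, 1 lower and 0 passing.

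Rpl5 and Rpl11 join the smallest ribosomal RNA of the large subunit in a particle that, when it stays unassembled, binds Mdm2 and raises p53. Rpl5 was at 525 and 424 FPKM in IVF and 584 and 449 FPKM in SCNT, a difference of 0.12 ± 0.24 (SE, log2(FPKM + 1) scale). Rpl11 was at 2521 and 1807 FPKM in IVF and 2709 and 1803 FPKM in SCNT, a difference of 0.05 ± 0.32. In both the libraries numbered 1 were above those numbered 2 in each group, and the groups overlapped. A chosen list of 9 members mutated in Diamond-Blackfan anaemia, a failure of red cell production, is not meant to be complete. All 9 had a higher estimate in SCNT, as did 69 of all 80 tested members, with a median of 0.11 and 0 passing. The 9 genes at the peptide exit tunnel and its rim had 7 higher and 2 lower estimates, a median of 0.10 and 0 passing.

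Rpl24 and Rpl28 were also among the large subunit genes with the smallest unadjusted p, and neither passed. Rpl24, which bridges to the small subunit, was at 2109 and 1846 FPKM in IVF and 2648 and 2037 FPKM in SCNT, a difference of 0.24 ± 0.25 (SE). Rpl28 was at 2504 and 2066 FPKM in IVF and 2959 and 2413 FPKM in SCNT, a difference of 0.23 ± 0.25. SCNT library 1 was the highest of the 4 for both, and SCNT library 2 lay between the IVF libraries. Rpl3, which lies near the peptidyl transferase centre, was at 1724 and 1256 FPKM in IVF and 1906 and 1371 FPKM in SCNT.

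The X chromosome carries 4 members. An Xist knockout allele enters the design of both groups, and its part in the values of these genes was not tested. Rpl10, a large subunit protein that joins late in assembly, was at 1508 and 1816 FPKM in IVF and 2035 and 1856 FPKM in SCNT, a difference of 0.23 ± 0.23 (SE). Rpl36a was at 1412 and 1193 FPKM in IVF and 1873 and 1337 FPKM in SCNT, a difference of 0.29 ± 0.27. Rpl39, at the exit tunnel, was at 1961 and 2378 against 2663 and 2361 FPKM. Rps4x was at 984 and 959.7 FPKM in IVF and 1276 and 927 FPKM in SCNT.
In each of the 4 genes SCNT library 1 was the highest of all libraries, as it was in many autosomal members, such as Rpl14 and Rps18. Their median difference was 0.42 between the libraries numbered 1 and 0.01 between those numbered 2, and 0 of the 4 passed. Over the 350 tested genes of the X chromosome these medians were 0.09 and 0.01, and over the 76 autosomal members 0.14 and 0.07. The autosomal members had a median group difference of 0.11 against 0.22 for the 4 X-linked members. The difference between X-linked and autosomal members was not tested.

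The number a library bore in its group went with larger differences than IVF against SCNT did. For 72 of the 80 tested members the larger of the IVF and SCNT gaps between libraries 1 and 2 exceeded the difference between the groups. The same held for 8463 of all 11039 genes tested. The larger of 2 gaps between single libraries is set here against a difference of means, which favours the gap. In the large subunit library 2 minus library 1 had a median of -0.24 in IVF and -0.30 in SCNT, and in the small subunit medians of -0.17 and -0.32. Over all genes tested these medians were -0.04 and -0.02. Library 1 was above library 2 in both groups for 36 large subunit genes (75.0%) and 24 small subunit genes (75.0%), against 39.6% of all genes tested, and the reverse held for 9 large and 5 small subunit genes, against 33.3%. Across the 80 members, the IVF gap and the SCNT gap had a Pearson r of 0.940 and a Spearman rho of 0.944, against 0.309 and 0.599 across all genes tested. These correlations are across genes of the same 4 libraries and describe them only. The libraries numbered 1 also had more symbols listed at 0, with 6527 and 6505 against 5716 and 5212, and the part of depth or of library preparation in the gap was not tested.

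Single members show how wide the gap could be. They were picked after their values were seen, from members with a wide gap in either direction. Rpl26, a protein near the exit tunnel, was at 549.999 and 121 FPKM in IVF and 522 and 121 FPKM in SCNT, a mean gap of -2.13 on the log2 scale, and its SCNT minus IVF difference was -0.04 ± 0.96 (SE). Rps2, which lines the mRNA entry, was at 5597 and 2439.8 FPKM in IVF and 5935 and 2647 FPKM in SCNT. Rps25, of the small subunit head, went the other way, with 1242 and 2296 FPKM in IVF and 1417 and 2628 FPKM in SCNT. Each of these genes gave nearly the same pair of values in both groups. Rpl37a was at 2182 and 3835 against 2432 and 3793 FPKM. Rpl34 was at 1567 and 2249 FPKM in IVF and 1002 and 2598 FPKM in SCNT, while its annotated pseudogene Rpl34-ps1 was at 1544 and 505 FPKM in IVF and 2324 and 341 FPKM in SCNT. Gene and pseudogene thus stood in opposite order between libraries 1 and 2 of each group, and how shared reads were divided between them was not tested. The 11 members whose protein has fewer than 100 residues were split, with library 1 above in 5 and library 2 above in 5, while of the other 69 library 1 was above in 55 and library 2 in 9.

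**Figure D3:**
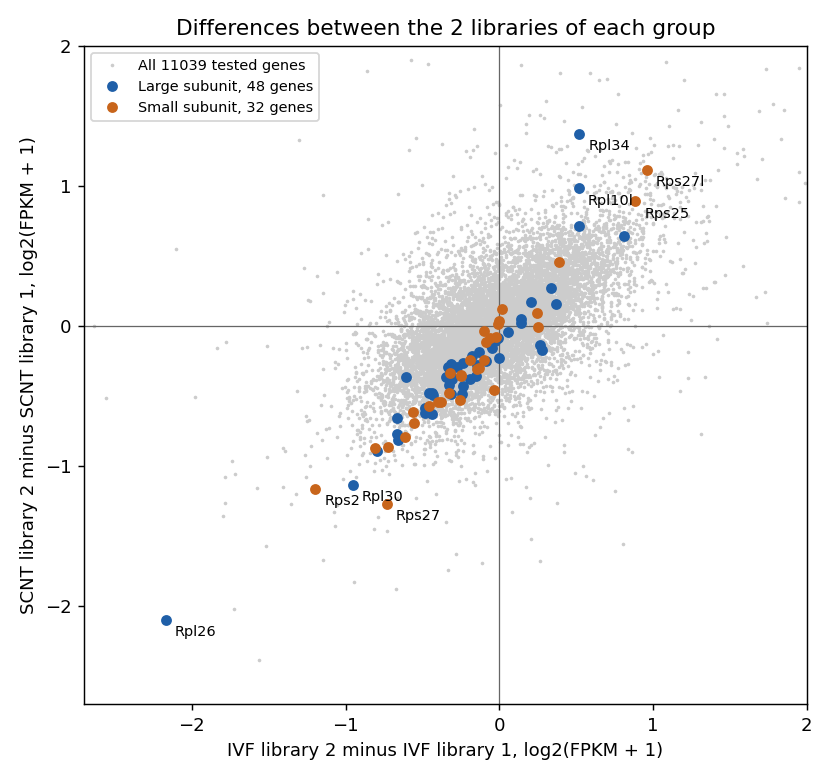
Library 2 minus library 1 in SCNT against the same in IVF, on the log2(FPKM + 1) scale, for large and small subunit genes over all 11039 tested genes in grey, of which 160 lie outside the axes of -2.7 to 2.0. The 80 members lie along the diagonal with a Pearson r of 0.940, from Rpl26 at the low end to Rps27l at the high end.

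Some ribosomal proteins have a second gene whose product can take the place of the first in certain tissues or under stress. Rps27l, a p53 target that replaces Rps27, was at 2165 and 4215 FPKM in IVF and 1794 and 3889 FPKM in SCNT. Rps27 itself was at 4145 and 2496 FPKM in IVF and 5201 and 2161 FPKM in SCNT. Rps27l made up 34.3% and 62.8% of the pair in IVF and 25.7% and 64.3% in SCNT. Which gene of the pair was the higher one changed between libraries 1 and 2 in both groups and not between IVF and SCNT.

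Rpl10l and Rpl39l are retrogene copies of the X-linked Rpl10 and Rpl39 that are known from the male germline. Rpl39l was at 96.9 and 139 FPKM in IVF and 72.4 and 119 FPKM in SCNT, a difference of -0.32 ± 0.32 (SE, log2(FPKM + 1) scale), the most negative of all members. Rpl10l was at 89.1 and 128 FPKM in IVF and 71.8 and 143 FPKM in SCNT. Rpl39l made up 4.71% and 5.54% of its pair in IVF and 2.65% and 4.81% in SCNT. Rpl10l made up 5.58% and 6.59% in IVF and 3.41% and 7.16% in SCNT. The 3 tested paralogs, Rps27l, Rpl39l and Rpl10l, all had a lower estimate in SCNT with a median of -0.19 and 0 passing, and SCNT library 1 was the lowest of the 4 libraries for each. Rps4l, a further copy, is not analysed here.

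**Figure D4:**
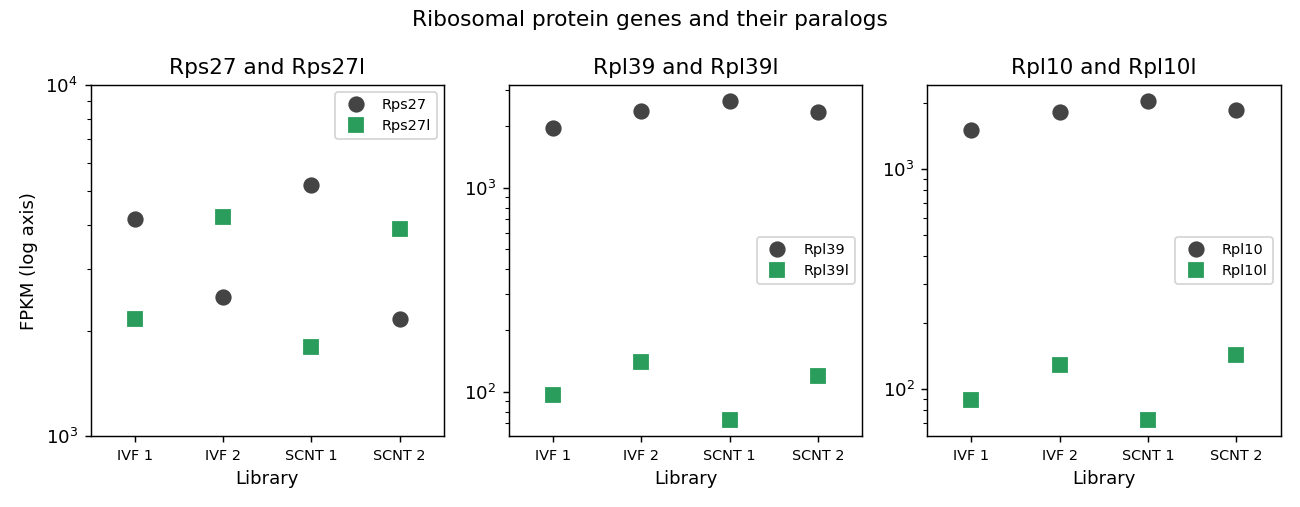
FPKM of Rps27, Rpl39 and Rpl10 (circles) and of their paralogs Rps27l, Rpl39l and Rpl10l (squares) in each of the 4 libraries, on log axes with 1 panel per pair. Rps27l lies below Rps27 in the libraries numbered 1 and above it in those numbered 2, while Rpl39l and Rpl10l lie far below their parent genes in all 4.

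Ribosomal protein genes whose names fall outside the rule gave values like those of the members. Of 6 such genes 5 had a higher and 1 a lower estimate in SCNT, with a median of 0.08 and 0 passing. Rpl22l1, which can replace Rpl22, was at 218 and 228 FPKM in IVF and 259 and 256 FPKM in SCNT. Rpl36al, a copy of Rpl36a, was at 1351 and 2074 against 1618 and 2262 FPKM. In the lists below 0 genes passed the limma test as well, and at an unadjusted p under 0.05 there was 1 gene, Taf1c.

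Proteins of the mitochondrial ribosome, which translates the mitochondrial genome's own mRNAs, showed the opposite gap between libraries. Over their 76 tested genes, library 2 minus library 1 had a median of 0.24 in IVF and 0.23 in SCNT, and library 2 was above library 1 in both groups for 53 genes, 69.7%, against 33.3% of all genes tested. Between the groups, 59 estimates were higher in SCNT and 17 lower, with a median of 0.09. Their sum was 12846 and 15329 FPKM in IVF and 13762 and 16322 FPKM in SCNT. Cytosolic and mitochondrial ribosomal protein genes thus both leaned to SCNT, with opposite signs of the median gap between libraries. The difference between these lists was not tested.

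The translation factors leaned to neither group. Of 37 genes of initiation, elongation and release factors and the poly(A)-binding protein Pabpc1, 18 had a higher and 19 a lower estimate in SCNT, with a median of -0.00. Eif5, which triggers GTP hydrolysis at the start codon, was at 101 and 79.6 FPKM in IVF and 76.1 and 66.1 FPKM in SCNT, a difference of -0.33 ± 0.21 (SE). Among 10 genes of other mRNAs known to carry a TOP tract, 7 estimates were higher and 3 lower, with a median of 0.05. This list shares Eef1a1, Eef2 and Pabpc1 with the translation factors and Gnb2l1 with the ribosomal protein genes outside the rule. Btf3, of the nascent polypeptide-associated complex, was at 832 and 897 FPKM in IVF and 1032 and 1073 FPKM in SCNT.

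Of the ribosome biogenesis factors 26 had a higher and 35 a lower estimate in SCNT, with a median of -0.03. Sbds, which frees the new large subunit for use, was at 83.0 and 92.1 FPKM in IVF and 117 and 114 FPKM in SCNT, a difference of 0.39 ± 0.18 (SE). Dkc1, the pseudouridine synthase of ribosomal RNA, was at 90.7 and 85.9 against 78.1 and 62.7 FPKM. Of 13 genes of RNA polymerase I and its factors 8 were higher and 5 lower. Taf1c, a subunit of the selectivity factor for ribosomal DNA, was at 11.1 and 9.45 FPKM in IVF and 7.52 and 6.21 FPKM in SCNT, with a limma adjusted p of 0.656.
Of 15 genes of mTORC1 and Myc control 6 were higher and 9 lower. Eif4ebp1, the repressor of cap-dependent translation that mTORC1 switches off, was at 614 and 503 FPKM in IVF and 476 and 351 FPKM in SCNT, a difference of -0.44 ± 0.25 (SE).

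**Figure D5:**
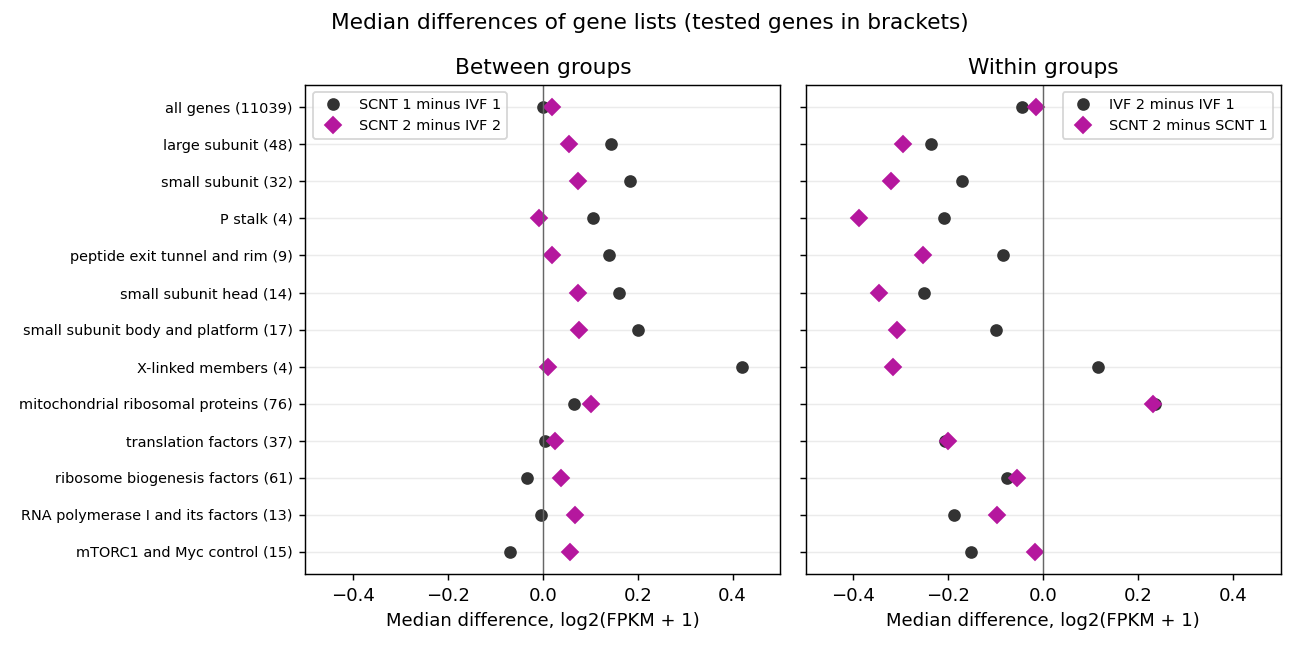
Median differences of the gene lists on the log2(FPKM + 1) scale, with the number of tested genes in brackets, between groups for each library number (left) and between the libraries of each group (right). The X-linked members stand at 0.42 for libraries numbered 1 and at 0.01 for those numbered 2, and the mitochondrial list lies above 0 between libraries, where the large and small subunit lists lie below it.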

How the data were processed

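RNA of 2 IVF and 2 SCNT libraries, grouped by their titles, was analysed. Whole embryos were lysed, and their cDNA was made and amplified with SMARTer Ultra Low Input reagents, sheared on a Covaris M220 and made into libraries with a NEBNext Ultra kit, per the labels' protocols. The authors deposited 1 value per gene symbol, read here as FPKM, a unit inferred from Cufflinks among the named tools and from the values. Per the submitters' processing notes, the reads were handled with TopHat2 2.0.14 and Bowtie2 2.1.0 on mm9, and Cufflinks 2.2.1 was run. The sources used here do not state the annotation, the treatment of reads that map to several places or the use of strand. FPKM of short genes is unstable, and amplification from few cells adds noise.

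The 11039 genes whose mean FPKM over all 4 libraries was 1 or more were tested on log2(FPKM + 1) by limma 3.58.1 (R 4.3.3), using moderated variances with a trend on the mean, no term but group, and Benjamini-Hochberg adjustment at 0.05. A pseudocount of 1 understates fold changes of low genes. The fit was also run on simulated data with independent noise and large planted changes. That simulation does not cover differences as small as those of the members, nor gaps shared by library number. The values are not counts, so no count test was run, and the absolute depth is unknown. From genes under 0.5 FPKM, the FPKM value of a single fragment in IVF 1 was estimated at 1.04 times that in SCNT 1. It was 0.978 times that of SCNT 2 in IVF 2, and 1.18 times that of IVF 2 in IVF 1. No value above 0 was identical between libraries of a group.

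The members and gene lists were chosen with earlier results of these data known. Members named are those with the smallest unadjusted p (6 per subunit), the highest and lowest by mean FPKM, the X-linked genes, the P stalk, Rpl5 and Rpl11, and the paralogs with their parents. For other lists, up to 3 genes with the smallest unadjusted p could be named. Other members named with values were chosen after their values were seen, and some genes are counted but not reported by name here. Chromosomes and promoter windows came from RefSeq (GRCm38.p6) by symbol, which is not the authors' build, and protein lengths and pseudogene names from GENCODE M21. Alternatives were other pseudocounts, filters and scalings, a robust prior, a term for library number, leaving out each library, and leaving out short, X-linked or small RNA hosting members (the last 2 sets added after seeing the data).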

Additional observations from a re-analysis of the deposited data

How the results depend on the processing

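The number of ribosomal protein genes passing the test was 0 in both subunits under every alternative run. Over all genes the 14 calls became 6 with small RNA genes left out and each library rescaled, and ranged from 45 to 53 when 1 library was left out, where the lone library is assumed to vary like the other group. Leaving out 1 library in turn, the median difference ranged from -0.023 to 0.27 in the large subunit and from 0.0030 to 0.26 in the small subunit, lowest without SCNT 1 and highest without SCNT 2, and the difference in share ranged from -1.07 (without SCNT 1) to 3.81 percentage points (without SCNT 2). The signs of the 32 named members' estimates turned for 4, 12, 16 and 3 of them without IVF 1, IVF 2, SCNT 1 and SCNT 2, for 2 with small RNA genes left out, and for 0 under the other alternatives. Leaving out X-linked members gave medians of 0.10 and 0.13, leaving out hosts of small RNA genes 0.10 and 0.13, and leaving out members under 100 residues 0.11 and 0.14. With 2 libraries a group, only large differences could pass.

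The groups share library numbers, and the labels do not say what a number stands for. With a replicate block for the number, 20 genes in all passed instead of 14, 0 of them members, and 4 large and 2 small subunit genes had an unadjusted p under 0.05, against 1832 of all 11039 genes. Under this block the smallest limma adjusted p was 0.263 in the large and 0.206 in the small subunit. Standard errors given elsewhere come from the fit without the block, so they include the gap between library numbers. With only 2 pairs, the numbers are not taken to pair the libraries.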

Other observations

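Many ribosomal protein genes carry genes of small nucleolar RNAs or microRNAs in their introns, which are cut from the same primary transcript as the mRNA. By their position in RefSeq GRCm38.p6, 25 members held 39 such genes, of which 34 had a value here. These small RNA genes varied far more than their hosts did: 5 were listed at 0 in all libraries, 11 in some, and 18 in none. Of the 34, both SCNT values lay above both IVF values for 5 and below both for 6. The 34 include the 5 listed at 0 in all libraries, which were not tested and could not separate. Over all genes tested the shares were 18.3% above and 15.1% below. Snord42b, which lies in Rpl23a, was the 1 that passed the test (limma, adjusted p of 0.000132), with 1724 FPKM in IVF 1, 1459 FPKM in IVF 2 and a listed 0 in SCNT 1 and SCNT 2. Its host Rpl23a was at 2979.9 and 2368 FPKM in IVF and 3283 and 2675 FPKM in SCNT. Snord100, in Rps12, was at 457 and 187 FPKM in IVF and 854 and 766 FPKM in SCNT, and Snora7a, in Rpl32, at 50.4 and 35.5 against 19.3 and 18.1 FPKM. FPKM of genes this short is unstable, and their direction differed from gene to gene. The hosts had a median SCNT minus IVF difference of 0.11 over the 25 genes, and the 55 other members one of 0.11.

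Of pseudogenes named after ribosomal proteins, 3 have symbols of their own in the files. Rps19-ps3 was at 483 and 294 FPKM in IVF and 412 and 332 FPKM in SCNT, and Rplp2-ps1 at 95.9 and 66.4 against 71.9 and 58.8 FPKM. Together with Rpl34-ps1 they summed to 2124 and 865 FPKM in IVF and 2808 and 731 FPKM in SCNT, with the libraries numbered 1 high in both groups.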
